A study of Mus musculus with 2 samples.

Results

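The 39 Hox genes of the 4 mouse Hox clusters were examined in whole uterus on day 4 of pregnancy. Members were taken by symbol, as every gene named Hox followed by a cluster letter from a to d and a number, which gave 39 of the 22740 genes in the table. RNA had been sequenced from the uteri of 2 wild-type C57BL/6 mice, 1 library per animal, called uterus 1 and uterus 2. Both belong to 1 group with no treatment, mutant or other stage beside it, so levels are described as mean ± SD (n = 2) and no comparison between conditions exists. The values are the authors' RPKM, a read count divided by transcript length and by library size, so levels of different genes can be compared. In whole tissue, fewer cells of a type and less RNA per cell cannot be told apart.

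Hox genes encode homeodomain transcription factors that give cells their position along the axis of the body. They lie in clusters, and their order on the chromosome follows the order of the body regions in which they act. Low numbers act toward the head, and genes numbered 9 to 13 toward the tail. Genes with the same number in different clusters are paralogues that arose by duplication of a whole cluster. In the female reproductive tract, which forms from the Muellerian duct, Hoxa9 marks the oviduct, Hoxa10 and Hoxa11 the uterus, and Hoxa13 the cervix and upper vagina. Hoxa10 and Hoxa11 stay active in the adult uterus, respond to progesterone and are needed for implantation.

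The 3 highest Hox genes were A and D copies of numbers 10 and 11, whose C copies were at or near 0, so their homeoboxes are shown first. A homeobox is the stretch of 180 bases that encodes the 60 residues of the DNA-binding homeodomain. Each sequence is the coding strand, 5′ to 3′, from the GENCODE M1 transcripts of build NCBIM37. Capitals mark codons 48 to 53, the core of the recognition helix, by which each box was located.
Hoxa10 (chr6:52182553-52182732, minus strand): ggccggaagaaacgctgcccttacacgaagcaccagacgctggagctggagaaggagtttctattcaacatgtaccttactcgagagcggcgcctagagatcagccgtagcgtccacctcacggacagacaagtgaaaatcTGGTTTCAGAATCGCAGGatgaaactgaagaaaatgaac
Hoxd10 (chr2:74532198-74532377, plus strand): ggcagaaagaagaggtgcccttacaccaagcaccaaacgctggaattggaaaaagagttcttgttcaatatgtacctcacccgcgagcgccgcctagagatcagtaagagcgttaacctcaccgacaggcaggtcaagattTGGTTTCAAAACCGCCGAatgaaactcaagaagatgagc
Hoxc10 (chr15:102801279-102801458, plus strand): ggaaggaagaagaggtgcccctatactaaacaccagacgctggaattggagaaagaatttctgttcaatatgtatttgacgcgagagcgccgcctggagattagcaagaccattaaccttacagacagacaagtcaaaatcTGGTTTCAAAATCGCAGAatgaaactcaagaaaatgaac
Hoxa11 (chr6:52193401-52193580, minus strand): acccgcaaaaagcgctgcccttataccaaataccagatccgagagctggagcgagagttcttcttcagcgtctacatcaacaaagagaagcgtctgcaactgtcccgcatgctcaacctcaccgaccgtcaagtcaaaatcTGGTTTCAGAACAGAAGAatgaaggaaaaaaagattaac
Hoxd11 (chr2:74521974-74522153, plus strand): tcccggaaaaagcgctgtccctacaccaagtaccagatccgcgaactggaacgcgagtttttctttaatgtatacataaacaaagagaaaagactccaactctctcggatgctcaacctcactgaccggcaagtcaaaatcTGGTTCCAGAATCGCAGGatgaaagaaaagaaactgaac
Hoxc11 (chr15:102786911-102787090, plus strand): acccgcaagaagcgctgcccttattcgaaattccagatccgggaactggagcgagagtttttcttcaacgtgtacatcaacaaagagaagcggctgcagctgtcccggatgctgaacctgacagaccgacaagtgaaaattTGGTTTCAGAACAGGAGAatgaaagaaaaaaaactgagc

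Over the box, Hoxa10 shared 78.9% of bases with Hoxd10 and 80.6% with Hoxc10, and Hoxc10 and Hoxd10 shared 82.8%. Hoxa11 shared 86.7% with Hoxc11 and 80.6% with Hoxd11, and Hoxc11 and Hoxd11 shared 79.4%. In this stretch the C copies, which were at or near 0 in the uterus, were at least as close to the A copies as the D copies were. Across all 39 members, the 42 pairs of paralogues had a median identity of 80.6% (67.2% to 93.9%), and the 35 pairs of neighbours within a cluster 68.3% (56.1% to 88.9%). The longest run of identical bases between annotated transcripts of a paralogue pair was 50, for Hoxb9 and Hoxc9. It was 14 for Hoxa10 and Hoxd10 and 17 for Hoxa11 and Hoxd11. The read length is not given in the sources used here, so reads that fall wholly inside such runs could not be assessed.

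Behind the RPKM stand 3788933 recovered reads in uterus 1 and 4209731 in uterus 2. Whole reads came out for 99.8% of the 17426 genes above 0. Intervals of counting were not added, since copies made by PCR are not independent molecules. The labelled tissue was checked against marker genes. All 5 markers of stroma, 4 of smooth muscle, 5 of epithelium and 2 of endothelium were at 1 RPKM or more in both uteri, a level that 58.4% of all genes reached. Of 4 markers of the squamous epithelium of vagina and cervix, Krt5 and Krt13 were listed at 0 in both, and Trp63 and Krt4 stayed under 1 RPKM. Ovgp1, the oviduct glycoprotein, lay at 5.78 and 9.31 RPKM. Rpl26, a ribosomal protein gene that cells in general use, is also listed at 0 in both libraries, so a listed 0 is not read as absence.

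A gene was called detected at 1 RPKM or more in both uteri. The lowest detected Hox gene was Hoxa6, with a mean of 1.59 RPKM, and the highest not detected was Hoxa4, with 0.888 RPKM. Detection held for 20 of the 39 Hox genes (51.3%), against 58.4% of all genes. At 10 RPKM or more in both lay 9 Hox genes (23.1%, against 30.4% of all genes), and 9 were listed at 0 in both (23.1%, against 23.4%). The median over Hox genes was 1.49 RPKM (uterus 1) and 1.12 RPKM (uterus 2), and that over all genes 3.29 and 3.23 RPKM. The median Hox gene thus lay below the median gene, and most of the signal came from a few members. Hoxa10, Hoxa11 and Hoxd10 together held 54.8% ± 0.335 (SD, n = 2) of the summed Hox RPKM.

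**Figure D1:**
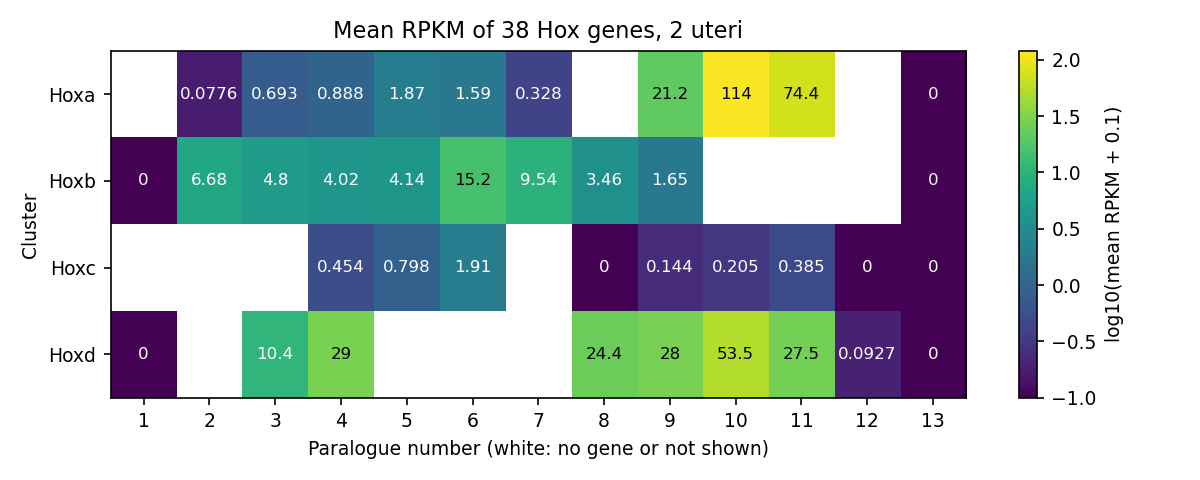
Mean RPKM of 38 Hox genes over 2 uteri, with clusters as rows and paralogue numbers as columns; colour is log10 of the mean plus 0.1 RPKM, the printed number is the mean RPKM, and white cells have no gene or are not shown. Means above 10 RPKM sit at numbers 9 to 11 of clusters A and D, at 3, 4 and 8 of cluster D and at 6 of cluster B, and the genes numbered 13 are listed at 0.

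Grouped by number, genes 9 to 13 held 72.7% ± 0.812 of the summed Hox RPKM, genes 5 to 8 14.3% ± 0.491, and genes 1 to 4 12.9% ± 0.321. Without members whose intervals overlap another Hox gene, among them Hoxd3 and Hoxd4, the share of genes 1 to 4 was 4.04%. Of the genes numbered 9 to 13, 7 of 16 were detected, of those numbered 5 to 8, 8 of 11, and of those numbered 1 to 4, 5 of 12, against 58.4% of all genes. Number 10 alone summed to 167 ± 0.813 RPKM and number 11 to 102 ± 5.61 RPKM. Number 9 summed to 50.9 ± 3.66 RPKM. By cluster, A held 48.7% ± 0.126, D 39.2% ± 0.416, B 11.2% ± 0.507 and C 0.881% ± 0.217. The order of A and D rests on Hoxa10: without it, A held 30.9% and D 52.8%.

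Number 10 had the highest sum, most of it from Hoxa10. Hoxa10 (NM_008263, chromosome 6, 52181196 to 52184938, minus strand) lay at 112 RPKM in uterus 1 against 115 in uterus 2, with a mean of 114 ± 2.40 RPKM. This placed it 394th among 22740 genes by mean level. Its values rest on 1350 and 1544 reads if the length used was 3142 bases, and on 675 and 772 reads at the smallest whole factor. That length equals the joined exons of 2 annotated transcripts, the main one of 2565 bases and an upstream first exon of 577 bases at chr6:52190277-52190853. Hoxd10 (NM_013554, chromosome 2, 74529948 to 74533163), which acts with its paralogues in the hindlimb and its motor neurons, lay at 54.4 RPKM in uterus 1 against 52.6 in uterus 2. Hoxa10 exceeded Hoxd10 by 2.06-fold in uterus 1 and 2.20-fold in uterus 2, and the libraries' ranges did not overlap. Hoxc10 lay at 0.409 RPKM in uterus 1 against 0 in uterus 2, on 3 reads and 0.

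Of the genes numbered 11, which pattern the urogenital tract and the forearm, the A and D copies were again the active ones. Hoxa11 (NM_010450, chromosome 6, 52192105 to 52195766) lay at 78.7 RPKM in uterus 1 against 70.2 in uterus 2, on 677 and 670 reads. Hoxd11 (NM_008273, chromosome 2, 74520380 to 74525073) lay at 27.6 RPKM in uterus 1 against 27.5 in uterus 2. Hoxa11 was 2.85-fold and 2.56-fold above it in the respective uteri. Hoxc11 was listed at 0 in uterus 1 and lay at 0.770 RPKM in uterus 2. The order of clusters, A above D and C lowest, was the same for numbers 10 and 11, and both libraries showed it.

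At number 9 the D copy led. Hoxd9 (NM_013555, chromosome 2, 74535820 to 74538265) lay at 27.0 RPKM in uterus 1 against 29.0 in uterus 2. Hoxa9, the oviduct gene of the tract code, lay at 19.5 RPKM in uterus 1 against 22.9 in uterus 2. The A and D copies differed by 1.38-fold in uterus 1 and 1.27-fold in uterus 2, and every library of Hoxd9 lay above every library of Hoxa9. Hoxb9, which patterns the thorax, lay at 1.74 RPKM in uterus 1 against 1.57 in uterus 2, and Hoxc9, a gene of thoracic spinal cord, at 0.152 RPKM in uterus 1 against 0.137 in uterus 2 on 1 read in each.

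The genes with the highest numbers were at or near 0. Hoxa13, the gene of the cervix and upper vagina, was listed at 0 in both uteri, as were Hoxb13 of prostate and tail, Hoxc13 of hair and nail, and Hoxd13 of digits and external genitalia. Hoxc12 was also listed at 0. Hoxd12 was listed at 0 in uterus 1 and lay at 0.185 RPKM in uterus 2. On the chromosome, the start of Hoxa13 lies 15.1 kb from that of Hoxa11, and the start of Hoxd12 7.31 kb from that of Hoxd11. The cervical and vaginal epithelial markers given above were likewise at or near 0, and their part in the result was not tested.

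**Figure D2:**
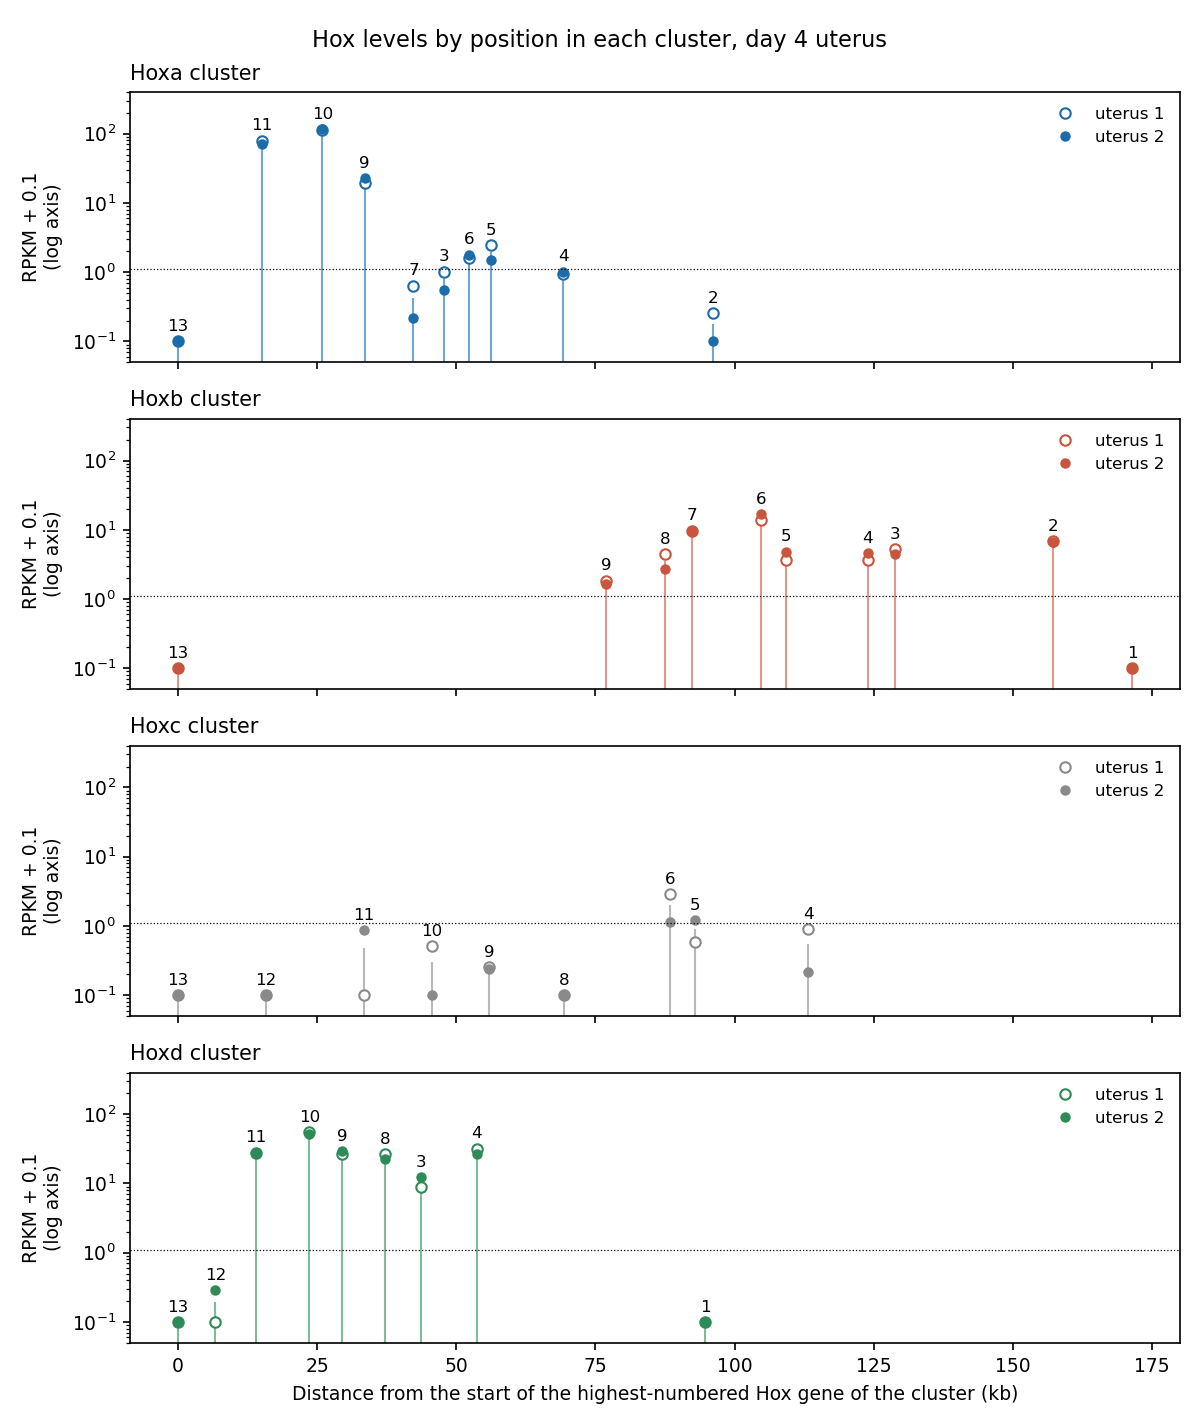
RPKM plus 0.1 on a log axis (open circles uterus 1, filled circles uterus 2, thin line up to the mean) against the distance in kb from the start of the highest-numbered gene of each cluster; numbers are paralogue numbers and the dotted line marks 1 RPKM. In cluster A only numbers 9, 10 and 11 rise above 10 RPKM, in cluster D all genes from 11 to 3 lie near or above that level, cluster B peaks at number 6 and is under 10 RPKM elsewhere, and cluster C stays near or under 1 RPKM apart from number 6.

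All 6 detected genes of cluster D, from Hoxd11 to Hoxd3, had means above 10 RPKM, against 3 genes in cluster A. Hoxd8, which acts with its neighbours in the trunk and limb, lay at 26.6 RPKM in uterus 1 against 22.3 in uterus 2. Hoxd4, a gene of the hindbrain and neck vertebrae, lay at 31.7 RPKM in uterus 1 against 26.3 in uterus 2. In the order of all Hox genes it came directly after Hoxd10, at a level that overlapped that of Hoxd9. Hoxd3 lay at 8.72 RPKM in uterus 1 against 12.1 in uterus 2. The transcripts annotated to Hoxd3 and Hoxd4 share 1725 exonic bases on the same strand, so their reads can have been split between them in ways the sources do not state. Hoxd1, a gene of sensory neurons, was listed at 0 in both uteri.

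In cluster A, levels dropped between numbers 9 and 7, whose starts lie 8.80 kb apart. Hoxa7 held 4 reads in uterus 1 and 1 in uterus 2, at 0.535 and 0.120 RPKM. Of the genes in front of it, Hoxa5, known for lung development, lay at 2.36 and 1.38 RPKM and Hoxa6 at 1.49 and 1.68 RPKM, and both counted as detected. The deposited interval of Hoxa3 starts beyond that of Hoxa6 and spans Hoxa4, Hoxa5 and Hoxa6 on the same strand, with 0 shared exonic bases in the annotation. Hoxa2, Hoxa3 and Hoxa4 lay between 0 and 0.923 RPKM in each library.

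In cluster B, levels were highest in the middle, at Hoxb6. Of its 10 genes 8 were detected, all from Hoxb9 to Hoxb2, against 58.4% of all genes. Hoxb6 lay at 13.8 RPKM in uterus 1 against 16.5 in uterus 2, on 70 and 93 reads. Its neighbour Hoxb7 lay at 9.45 RPKM in uterus 1 against 9.63 in uterus 2. Hoxb2, which acts in the hindbrain, lay at 6.72 RPKM in uterus 1 against 6.63 in uterus 2, and was above Hoxb3 at 5.19 and 4.42 RPKM, Hoxb4 at 3.56 and 4.49 RPKM and Hoxb5 at 3.58 and 4.71 RPKM. Hoxb8, used in the nervous system and in blood progenitors, lay at 4.34 and 2.58 RPKM on 44 and 29 reads. The whole cluster summed to 49.5 ± 1.53 RPKM, less than Hoxd10 alone. Hoxb1, a hindbrain gene, was listed at 0.

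In cluster C, 1 gene of 9 was detected, against 58.4% of all genes. Hoxc6, a gene of the thorax and mammary gland, lay at 2.79 RPKM in uterus 1 against 1.03 in uterus 2, on 17 and 7 reads. Hoxc4 and Hoxc5 lay between 0.118 and 1.12 RPKM on 1 to 13 reads, and Hoxc8 was listed at 0. The sum over the cluster was 3.90 ± 1.01 RPKM, against 215 ± 2.51 RPKM for cluster A.

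Across the genes of a cluster, Spearman's rho of mean RPKM with paralogue number was 0.437 for A (11 genes), -0.207 for B (10 genes), -0.695 for C (9 genes) and -0.05 for D (9 genes). These are descriptions over genes that share the same 2 libraries and, in cluster C, mostly a few reads. In A, B and D levels followed no steady gradient: in B and D the highest gene lay inside the cluster and both ends were listed at 0, and in A levels were lower on either side of Hoxa10. Ordered by mean, the 20 detected genes form 19 neighbouring pairs. In 8 pairs the libraries' ranges were separate, and in 11 they overlapped. Hoxa10, Hoxa11 and Hoxd10 were each separate from the next gene below, by 1.53-, 1.39- and 1.85-fold. Hoxd4, Hoxd9 and Hoxd11, at means of 29.0, 28.0 and 27.5 RPKM, were not ordered beyond their spread, and no neighbouring pair from Hoxb3 downward was separate.

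The start regions of detected and undetected members were compared in the genome of the files' build, from 250 bases before to 50 bases after the deposited start. CG dinucleotides, where methylation of DNA can occur, were counted. The median was 17.5 for the 20 detected Hox genes (3 to 59), 16 for the 19 others (8 to 45) and 13 for all 22663 genes with a full window. The 9 members listed at 0 had a median of 20.0. Only deposited starts were used, so the region around the upstream first exon of Hoxa10 (chr6:52190277-52190853) was not examined. The part upstream of the deposited start is shown for Hoxa10 and Hoxa13, on the gene's strand, with CG in capitals. They are the highest member and a member at 0 of the same cluster.
Hoxa10 (chr6:52184939-52185188, minus strand): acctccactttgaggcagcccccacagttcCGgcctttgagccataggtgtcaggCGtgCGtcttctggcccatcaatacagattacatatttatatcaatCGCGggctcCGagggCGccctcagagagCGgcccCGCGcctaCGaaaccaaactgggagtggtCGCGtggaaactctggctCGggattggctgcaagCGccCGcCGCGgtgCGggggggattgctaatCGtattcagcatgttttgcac
Hoxa13 (chr6:52210875-52211124, minus strand): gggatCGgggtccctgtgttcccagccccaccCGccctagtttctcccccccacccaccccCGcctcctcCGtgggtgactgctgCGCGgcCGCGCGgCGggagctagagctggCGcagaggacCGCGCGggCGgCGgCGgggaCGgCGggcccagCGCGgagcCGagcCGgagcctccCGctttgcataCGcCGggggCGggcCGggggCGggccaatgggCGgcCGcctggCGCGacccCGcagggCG

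These 250 bases hold 20 CG in Hoxa10 and 35 in Hoxa13, so the gene listed at 0 had the denser upstream region. Methylation itself was not measured. Of 3 short words searched on both strands of the 300 bases, AGAACA, a half-site of the progesterone receptor, occurred in 3 of 39 Hox windows (7.69%) and 16.4% of all windows. AGGTCA, a half-site of the oestrogen receptor, occurred in 8 (20.5%, against 14%). TTTATG, a word bound by caudal-type factors, occurred in 9 (23.1%, against 10.2%). Among the 20 detected and 19 other members, AGAACA occurred in 2 and 1, AGGTCA in 6 and 2, and TTTATG in 6 and 3. The difference between these small counts was not tested. A match is a description of letters, and the windows of Hoxa10 and Hoxa11 hold none of the 3 words.

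**Figure D3:**
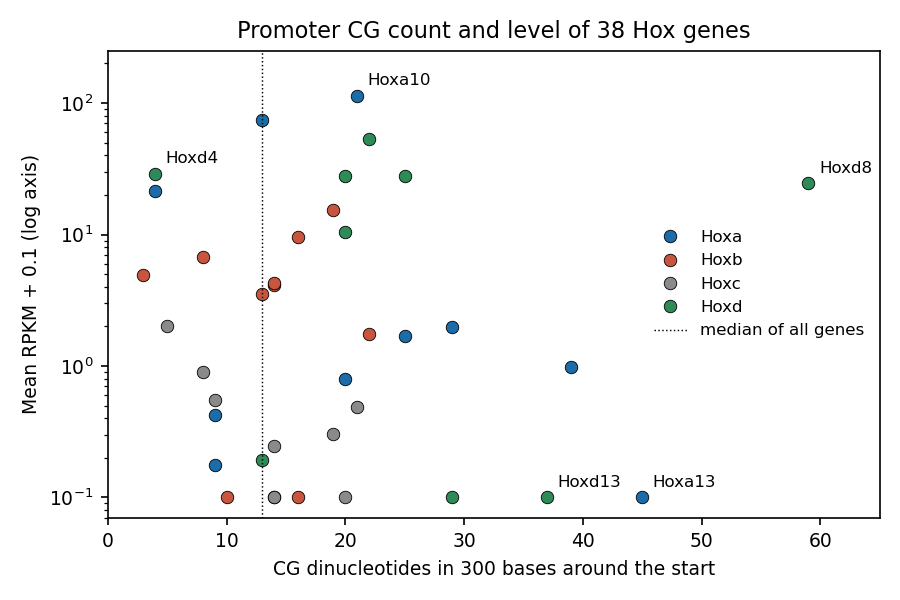
Mean RPKM plus 0.1 (log axis) of 38 Hox genes against the number of CG dinucleotides in the 300 bases around the start, coloured by cluster; the dotted line is the median of all genes, 13. Genes listed at 0 and genes above 10 RPKM both spread over a wide range of CG counts.

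The 2 animals were compared next. Of the 20 whose mean reached 1 RPKM, 1 was at least 2-fold apart, against 2.60% of 13647 genes, on log2 ratios of uterus 2 over uterus 1 taken after adding 0.1 RPKM. It was Hoxc6, 1 of 20 higher in uterus 1 (against 1.42% of all genes), with a log2 ratio of -1.35, and 0 of 20 were that much higher in uterus 2 (against 1.18%). The count depended on the setting: without the filter on the mean it was 8 of 39, against 8.12% of all genes, and on the TPM scale 3 of 24, against 4.93%. The members added without the filter were Hoxa2, Hoxa7, Hoxc4, Hoxc5, Hoxc10, Hoxc11 and Hoxd12. Their means lay under 1 RPKM, on at most 13 reads in a library. Where the mean reached 1 RPKM, the SD of the log2 ratio was 0.43 over the Hox genes and 0.44 over all genes, and the median was -0.01 against 0.00. Ratios ranged from -1.35 to 0.47, and 9 members were higher in uterus 2 and 11 in uterus 1.

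Recovered reads were set against each other in a two-sided exact binomial test with Benjamini-Hochberg adjustment over 15104 genes, which compares these 2 libraries and not conditions. Its p-values cover counting error only and treat reads as independent molecules, which PCR copies are not. It called 0 of 24 Hox genes with at least 6 reads over both libraries, against 4.64% of all genes tested. At an unadjusted p under 0.05 there were 5 of 24, against 15.6% of all genes. The lowest adjusted p of this exact test was 0.137, for Hoxd3 on 97 and 150 reads. Its neighbour Hoxd4 went the other way, on 311 and 286 reads, with an adjusted p of 0.209 in the same exact test. The other 3 were Hoxa11, Hoxb8 and Hoxc6, all higher in uterus 1. A p that misses the threshold does not show that levels were equal, and few reads leave a wide counting error. Of the cell-type markers, the exact test called 2 of 5 of stroma and 2 of 4 of smooth muscle. It called 1 of 5 of epithelium and 0 of 2 of endothelium. Col1a1 (1184 against 851 RPKM) and Acta2 were higher in uterus 1. Vim, Myh11 and Krt18 (70.4 against 94.3 RPKM) were higher in uterus 2. Whether the uteri differed in cell composition was not tested.

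**Figure D4:**
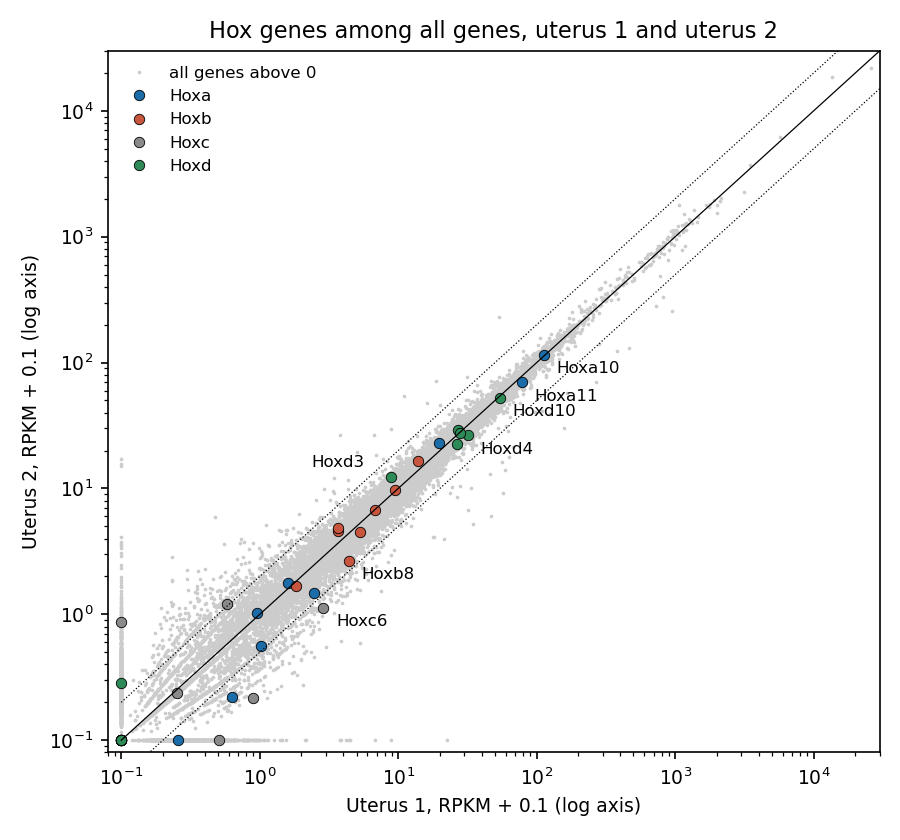
RPKM plus 0.1 in uterus 2 against uterus 1, both on log axes, for all genes above 0 (grey) and 38 Hox genes (coloured by cluster); the solid line marks equality and the dotted lines 2-fold. Hox genes above 5 RPKM lie close to equality, with Hoxd3 slightly above it and Hoxd4 slightly below, and the scatter widens under 5 RPKM.

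Non-coding genes lie between the Hox genes, and 12 such entries were listed within the 4 clusters, 6 of them microRNA hairpins. Hoxa11as (NR_015348, chromosome 6, 52195242 to 52199768, plus strand), transcribed against Hoxa11, was the highest at 105 RPKM in uterus 1 against 110.3 in uterus 2, with a mean of 108 ± 3.55 RPKM. This exceeds Hoxa11 itself in each uterus and lies just under Hoxa10. Hoxa11as and Hoxa11 share 525 exonic bases on opposite strands. Use of strand in counting is not given in the sources used here, so reads from those bases cannot be assigned to either gene. The recovered length of Hoxa11as was 1839 bases, so most of it lies outside the shared stretch.

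The entry 1700109F18Rik, listed in RefSeq as Hoxd3os1, runs against Hoxd3 and lay at 9.85 RPKM in uterus 1 against 6.21 in uterus 2, on 30 and 21 reads. It shares 324 exonic bases with Hoxd3. In cluster A, 2700086A05Rik, listed in RefSeq as Hoxaas3, lay at 1.56 and 1.13 RPKM on 5 and 4 reads. Gm53, whose nearest Hox gene is Hoxb9, lay at 1.27 and 3.43 RPKM on 3 and 9 reads. Hotair, a non-coding RNA between Hoxc12 and Hoxc11, held 1 read in uterus 1 and was listed at 0 in uterus 2, and Mira, beside Hoxa7, showed the same counts.

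Of the hairpins, 5 belong to families that sit at fixed places in the clusters, miR-10 near number 4 and miR-196 near numbers 9 and 10. Mir615 lies within Hoxc5. The mature forms of both families are shown because the miR-196 forms pair almost fully with a Hox transcript. Sequences are from RefSeq (build GRCm38.p6), matched for all 6 hairpins, with the seed (bases 2 to 8) in capitals.
miR-196a-5p: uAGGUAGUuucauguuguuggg
miR-196b-5p: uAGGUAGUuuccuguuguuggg
miR-10a-5p: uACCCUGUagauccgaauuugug
miR-10b-5p: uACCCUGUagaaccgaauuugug

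Both miR-196 forms share the seed AGGUAGU, and both miR-10 forms the seed ACCCUGU. Over the annotated transcripts of all Hox members, pairing of at least 18 bases without gaps was found at a single place for these 4 forms. It lies in the 3′ part of Hoxb8 after the stop codon (chr11:96146202-96146223, plus strand), a place that an annotated Hoxb7 transcript also covers, and capitals mark the bases opposite the seed.
Hoxb8 site: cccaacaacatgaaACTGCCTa

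This site makes 21 Watson-Crick pairs and 1 G-U pair with the 22 bases of miR-196a-5p, and 20 and 1 with miR-196b-5p, and the G-U pair lies opposite the seed. Cleavage of Hoxb8 by miR-196 in the embryo is a textbook case. Here, Hoxb8 lay at 4.34 and 2.58 RPKM, below its neighbour Hoxb7 and above its neighbour Hoxb9. The hairpin rows held few reads: Mir196b, between Hoxa9 and Hoxa10, lay at 21.5 and 16.6 RPKM on 7 and 6 reads, and Mir196a-1 at 5.11 and 4.61 RPKM on 2 and 2. Mir10b lay at 3.84 and 6.91 RPKM on 1 and 2 reads, and Mir10a held 1 read in uterus 1 and was listed at 0 in uterus 2. Mir196a-2 and Mir615, both in cluster C, were listed at 0. These reads come from libraries of long RNA, and mature microRNA was not measured.

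Hox proteins bind DNA together with homeodomain partners of the TALE class, the Pbx, Meis and Pknox families. Of 8 such genes 7 were detected, against 58.4% of all genes, and the list's median was 16.4 ± 0.613 RPKM. Pbx2 lay at 18 and 18.3 RPKM, Pbx3 at 4.47 and 4.42 RPKM and Pbx4 at 0.774 and 1.05 RPKM. Meis1, which binds with Pbx and with posterior Hox proteins, lay at 32.7 and 34.1 RPKM, Meis2 at 26.8 and 22.8 RPKM and Meis3 at 12.6 and 11.7 RPKM. Pknox1 lay at 13.9 and 15.3 RPKM and Pknox2 at 22.4 and 19.7 RPKM.

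Cdx1 and Cdx2, caudal-type factors that switch on posterior Hox genes in the embryo, were listed at 0, and Cdx4 held 1 read in uterus 1 alone. Of 10 genes tied to the clusters or their control, 1 was detected, against 58.4% of all genes. This was Gmnn, which encodes geminin, a Hox-binding regulator of replication that has no homeobox, at 8.54 and 6.49 RPKM.

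Among 23 regulators of the developing reproductive tract, 15 were detected (against 58.4% of all genes) and 3 were listed at 0 in both uteri (against 23.4%). The list's median was 2.95 RPKM in uterus 1 and 1.84 RPKM in uterus 2. Osr2 was highest at 91.2 and 81.8 RPKM, followed by Nr2f2, a stromal nuclear receptor, with a mean of 57.8 ± 3.15 RPKM, and Wnt5a at 54.7 and 50.2 RPKM. Pax8, a factor of Muellerian epithelium, lay at 10.6 and 10.7 RPKM, and Pax2 at 1.72 and 1.01 RPKM. Lhx1 and Wnt9b, which act early in duct formation, were listed at 0. The exact binomial test called 0 of 20 of these genes, against 4.64% of all genes.

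Of 10 genes reported downstream of Hoxa10 or Hoxa11, 8 were detected, against 58.4% of all genes. The list's median was 23.0 RPKM in uterus 1 and 24.6 RPKM in uterus 2. Fkbp4, a chaperone of the progesterone receptor, lay at 108 RPKM in uterus 1 against 129 in uterus 2, the 1 gene of 9 tested that the exact binomial test called, with an adjusted p of 0.00305 that covers counting error only, against 4.64% of all genes called. Emx2, a gene lowered by Hoxa10 in other settings, lay at 18.5 and 16.3 RPKM, and Itgb3, the beta-3 integrin, at 18 and 17.1 RPKM. Ptger3 and Ptger4, receptors of prostaglandin E2, lay at 35.4 and 32.0 RPKM and at 32.7 and 37.1 RPKM. Igfbp1, a marker of human decidua, was listed at 0. In 1 wild-type group these levels do not bear on whether Hox proteins control the genes.

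**Figure D5:**
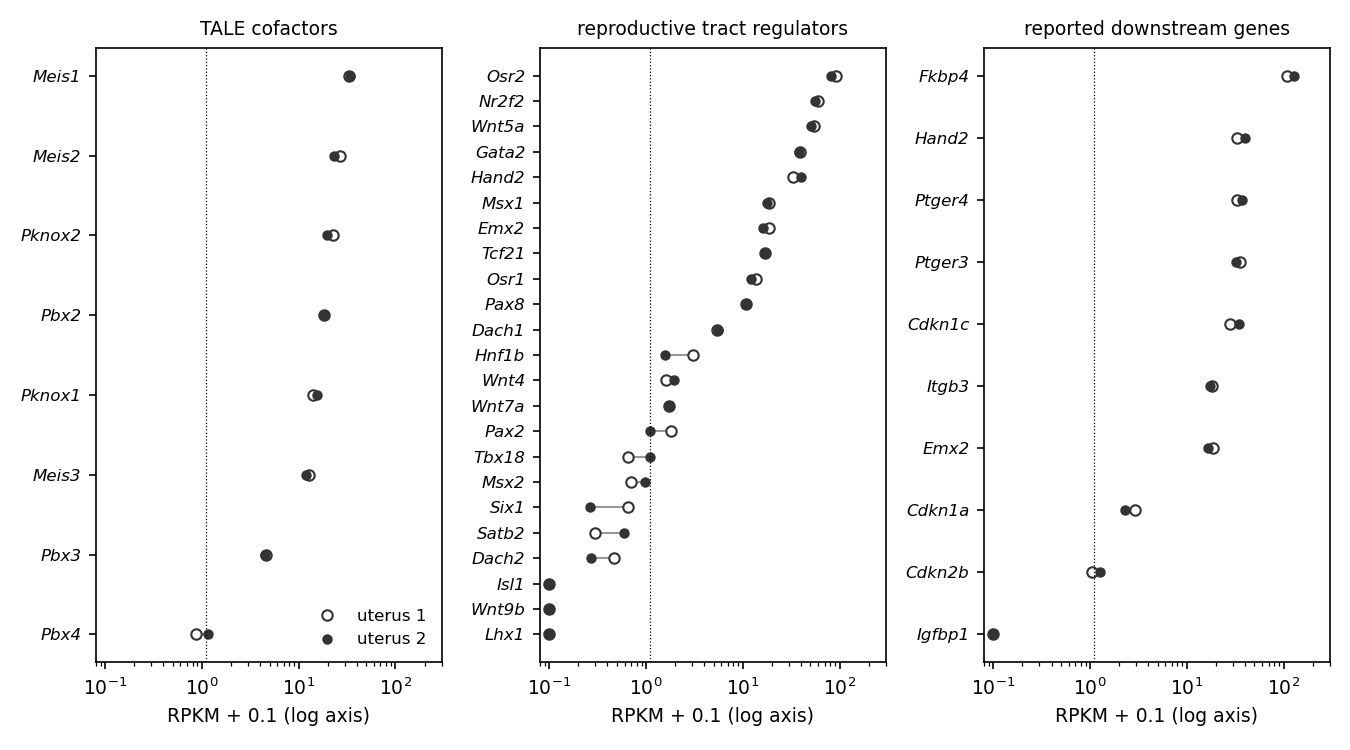
RPKM plus 0.1 on a log axis in uterus 1 (open) and uterus 2 (filled) for TALE cofactors, regulators of the reproductive tract and genes reported downstream of Hoxa10 or Hoxa11; the dotted line marks 1 RPKM. All cofactors shown but Pbx4 lie above 1 RPKM in both uteri, and Meis1 is the highest of those shown.

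The flanks of the clusters were read from the 3 nearest protein-coding genes of the table on each side. Evx1, 52.6 kb from the Hoxa13 end, and Evx2, 8.89 kb from the Hoxd13 end, are homeobox genes that accompany the clusters, and both were listed at 0 in both uteri. Beyond them, Hibadh lay at 38.7 and 33.9 RPKM and Lnp, the next gene past Evx2, at 4.46 and 5.46 RPKM. Mtx2, a mitochondrial protein gene 60.7 kb from the Hoxd1 end, lay at 32.1 and 33.4 RPKM beside a Hoxd1 listed at 0. Hibadh lies 285 kb and Lnp 89.4 kb from the cluster end, so the genes listed at 0 at the ends of clusters A and D were followed by genes above the median of all genes. At cluster B, the genes beyond Hoxb13 were Ttll6, listed at 0 in both, Calcoco2, with a mean of 0.0643 RPKM, and Atp5g1 at 81.7 and 79.3 RPKM, 119 kb from the end. Beyond Hoxb1 lay Skap1 at 0.595 and 2.15 RPKM, Snx11 at 7.48 and 8.83 RPKM and Cbx1 at 31.5 and 31.0 RPKM. Near cluster C, Calcoco1 lay at 20.3 and 21.0 RPKM and Smug1, a DNA repair gene, at 5.20 and 5.73 RPKM, while the cluster between them stayed low. Hnrnpa1, 204 kb from the Hoxc4 end, lay at 2.04 and 2.21 RPKM, under the medians of all genes of 3.29 and 3.23 RPKM.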

How the data were processed

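RNA of whole uterus from 2 mice was sequenced, 1 library per mouse. Per the labels' protocols, 1 microgram of total RNA per sample went into TruSeq preparation, and the design text adds poly-A purification. Per the submitters' processing notes, TopHat, edgeR and build mm9 (NCBIM37) were used. The counting program, annotation release, read length and use of strand are not given in the sources used here. The authors deposited RPKM, per the labels' design text, in a plain and an annotated table. The first base of a chromosome is 0 in the deposited starts and 1 in the coordinates printed here.

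The members and gene lists were chosen with earlier results of these data known. Genes named were members whose mean reached 5 RPKM, all members numbered 9 to 13, non-coding entries whose mean reached 1 RPKM and TALE cofactors. Some items are not reported here. Others named in the text were chosen after their values were seen.

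What 1 read is worth was taken from single-exon genes, and library totals behind the scaling came out as 3834174 for uterus 1 and 4256101 for uterus 2. Lengths that made both values of a gene whole reads within 1e-05 of a read were searched, and the one nearest an annotated length was taken. For 6 members (Hoxa10, Hoxb5, Hoxc11, Hoxd9, Hoxd10 and Hoxd12) a smaller whole factor was possible. The procedure was tested on simulated data, but no outcome is reported here, so that test is not used as support. Homeobox identity was computed on bases, in place of the planned residues. Python 3.11.15, pandas 2.3.3, NumPy 2.4.6 and SciPy 1.17.1 were used. Alternatives covered thresholds, pseudocounts, filters, the TPM scale, either library alone, overlapping members and the smallest possible reads.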

Additional observations from a re-analysis of the deposited data

How the results depend on the processing

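The number of detected Hox genes was 21 at 0.5 RPKM, 16 at 2 RPKM, 23 on the TPM scale and 20 to 21 with either library alone, against 20. The number at least 2-fold apart, 1, became 0 with a pseudocount of 1 and 0 at a mean of at least 5 RPKM, where 1.12% and 0.722% of all genes were as far apart. It became 8 of 39 without a filter, where 8.12% of all genes were as far apart, and 3 of 24 on the TPM scale, where 4.93% were. The filters and the TPM scale change which Hox genes are counted, with 24 on the TPM scale against 20. Whether this accounts for the whole change on the TPM scale was not tested. A larger pseudocount shrinks log2 ratios by construction. The median log2 ratio ran from -0.0198 (TPM scale) to 0.00851 (mean of at least 5 RPKM), so it has no direction. The exact binomial test called 0 Hox genes also with the smallest possible reads, which called 578 of 14864 genes. With either library alone, rho of level with paralogue number ran from 0.428 to 0.486 in cluster A, from -0.17 to -0.122 in B, from -0.783 to -0.548 in C and from -0.0678 to 0.0502 in D. Without members that overlap another Hox gene, rho was 0.324 in A and -0.108 in D, and it did not change in B and C. Without Hoxa10, by construction, the shares of the summed Hox RPKM became 30.9% for cluster A, 15.1% for B, 1.19% for C and 52.8% for D, so that D then exceeded A. By number they became 17.4% for 1 to 4, 19.3% for 5 to 8 and 63.3% for 9 to 13. Without overlapping members they became 52.9% (A), 12.5% (B) and 33.7% (D), and 4.04%, 15.1% and 80.9% by number. With either library alone each share moved by less than 1 SD, which for 2 libraries holds by construction. No paired analysis was possible because both uteri belong to the same group. Members under 1 RPKM rest on at most 13 reads in a library, which limits what can be said of clusters C and the anterior part of A.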

Other observations

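Several gene families lie beside more than 1 Hox cluster, and their levels can be set beside those of the Hox genes they flank. The values below were chosen after they were seen and are given as values only. Cbx3, Cbx1 and Cbx5, the heterochromatin protein genes beside clusters A, B and C, lay at 108 and 103 RPKM, 31.5 and 31.0 RPKM and 38.0 and 35.2 RPKM. Atp5g1, Atp5g2 and Atp5g3, which encode the same subunit of ATP synthase beside clusters B, C and D, lay at 81.7 and 79.3 RPKM, 160.0 and 165 RPKM and 151 and 117 RPKM. The Cbx and Atp5g copies beside the cluster C were thus at 36.6 and 162 RPKM on average. Hnrnpa1, also beside cluster C, went the other way at 2.04 and 2.21 RPKM. Its relative Hnrnpa3 beside cluster D lay at 34.8 and 29.5 RPKM. The genes of this paragraph lie between 96.3 kb (Skap1) and 894 kb (Hnrnpa3) from the end of their cluster. Skap2 and Snx10 beside cluster A lay at 18 and 23.7 RPKM and 19.0 and 20.1 RPKM, and their relatives Skap1 and Snx11 beside cluster B at 0.595 and 2.15 RPKM and 7.48 and 8.83 RPKM.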
